A study of Bos taurus with 4 samples.

Results

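The cytosolic ribosomal protein genes were followed in granulosa cells, which line the ovarian follicle and nourish the oocyte within it. A gene was a member when its symbol in the array's annotation started with RPL or RPS followed by a digit, or was RPLP0, RPLP1, RPLP2 or RPSA. Kinase genes starting RPS6K and paralogues whose symbols end in L or L1 were left out, and each gene was represented by its brightest probe over all 8 channels. This gave 64 genes with 111 probes, of 15229 named genes and 43794 probes on the array. Of them, 39 are named for the large subunit and 24 for the small subunit. The 64th, RPS19BP1, meets the naming rule but encodes a nucleolar protein that binds RPS19 and is not a ribosomal subunit. A further 14 ribosomal protein genes of the RefSeq cattle annotation had no probe under their symbol, among them RPL3, RPL10, RPL22, RPS4X and RPS27A. These were not analysed by name here.

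The ribosome reads messenger RNA and joins amino acids into protein. Its small subunit holds the messenger RNA and checks the pairing with transfer RNA, and its large subunit forms the peptide bonds and carries the exit tunnel. The proteins are needed in near-equal numbers, and in mammals their messenger RNAs start with a terminal oligopyrimidine (TOP) tract through which mTOR signalling adjusts their translation. They are among the most abundant messenger RNAs of a growing cell, and RPLP0, RPL13A and RPS18 are often used as reference genes in PCR. Granulosa cells grow, divide and secrete steroids and inhibins under gonadotropin stimulation.

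The donors were Holstein cattle, and in every group the ovaries had been stimulated with hormone and then coasted, that is, left untreated for a time, before the cells were taken. Pools were labelled good or poor by how well the donors' oocytes developed, and no genotype, age or further treatment separates them in the labels. Each of 4 arrays carried 1 good-donor and 1 poor-donor pool, with Cy5 on the good-donor RNA of arrays 1 and 2 and Cy3 on that of arrays 3 and 4. The design text names 94 heifers and cows and sets cows against heifers, whereas the title speaks of heifers, so the age class of the good donors is not settled here. The pools hold an unstated number of animals, and p-values measure the spread between these 4 arrays. RNA was amplified in several rounds before labelling.

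All 8 granulosa markers were tested, and INHA, FSHR, CYP19A1 and CYP11A1 were above the control level in all 8 channels, so markers of the labelled cell type were present in every pool. All 8 had a mean ratio of good over poor above 0, with a median of 0.19. At an unadjusted p under 0.05 (limma) 1 was higher, against 2.18% of all tested probes, and 0 passed the adjusted test. Their array medians were -0.04, 0.31, 0.25 and 0.45, with 4 of the 8 above 0 on array 1. Their summed intensity ran from 66072 to 111629 in good-donor pools and from 44027 to 106063 in poor-donor pools, which overlap. The sums, in which the brightest markers weigh most, split by dye and not by donors. They were 96060 to 111629 in the Cy5 pools and 44027 to 79820 in the Cy3 pools. The single markers did not share this split. Ratios above 0 on arrays 1 and 2 and below 0 on arrays 3 and 4 were seen in 2 of the 8, and the reverse in 2. The median log2 of Cy5 over Cy3 over the 8 was -0.14, with a range from -0.70 to 1.18. Markers of other cells were also present. All 10 measured leukocyte markers had lower mean signal in good-donor pools, with summed intensities of 1191 to 2389 against 1750 to 6884, and the highest value belonged to the poor-donor pool of array 4. Their array medians were 0.08, -0.59, 0.05 and -1.55, so the lower means came from arrays 2 and 4, and on arrays 1 and 3 there were 6 and 5 of the 10 above 0. Of 9 measured epithelium markers 8 had a mean ratio below 0, with sums of 8124 to 28992 against 15985 to 62043. Array 1 ran the other way, with 8 of the 9 above 0, a median of 0.50 and a sum of 28992 in the good-donor pool against 15985 in the poor-donor pool. The epithelium medians on arrays 2 to 4 were -0.75, -0.87 and -2.07. By dye orientation, their median ratio was 0.08 where good donors were in Cy5 and -2.02 where they were in Cy3. Each of the 9 had a higher mean ratio where good donors were in Cy5. Dye orientation and the particular pools cannot be told apart. No marker of either list passed the adjusted test, and the part of these cells in the values below was not tested. In pooled tissue RNA, fewer cells of a type and less RNA per cell cannot be told apart.

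Good-donor and poor-donor pools were first compared directly, to ask whether the ribosomal protein genes differ with the competence of the oocytes. None of the 64 genes passed the adjusted test, and their median ratio was close to 0. Values are log2 ratios of good over poor, so that a negative value is a lower signal in good-donor pools. All 64 probes were above the control level in all 8 channels, which held for 56.1% of all probes on the array, and all 64 entered the test. At an adjusted p under 0.05, 0 of 64 were called, where the background is 0% of 31917 tested probes (limma, Benjamini-Hochberg over all tested probes). The median over the 64 genes was 0.0078 and the median over all tested probes was -0.0012. Of the members, 34 had a mean above 0 and 30 below, with a range from -0.36 to 0.27. The mean lay within 0.1 of 0 in 34 genes and exceeded its SD over arrays in 7.

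At an unadjusted p under 0.05, 5 members were lower in good-donor pools, against a background of 1.37% of tested probes, and 0 were higher, against 2.18%. The 5 were RPL28, RPL39, RPS18, RPS27 and RPS19BP1, and each had an adjusted p of 1.00 in limma. Values below 0 on all 4 arrays were seen in 6 members, these 5 and RPL29, against a background of 4.17%. Values above 0 on all 4 arrays were seen in RPL13A, against a background of 5.1%. The good-donor pools lay below every poor-donor pool in 2 members, RPL28 and RPS19BP1, where the background is 0.79%. With normexp at offset 0 the number at an unadjusted p under 0.05 was 0, and across the other settings it ran up to 7. With a dye term in the fit 7 members had an unadjusted p under 0.05 and 0 were called. Of these 2 were higher, RPL12 and RPL15, against a background of 3.55%, and 5 were lower, against 2.21%, with RPS29 in place of RPS18.

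**Figure D1:**
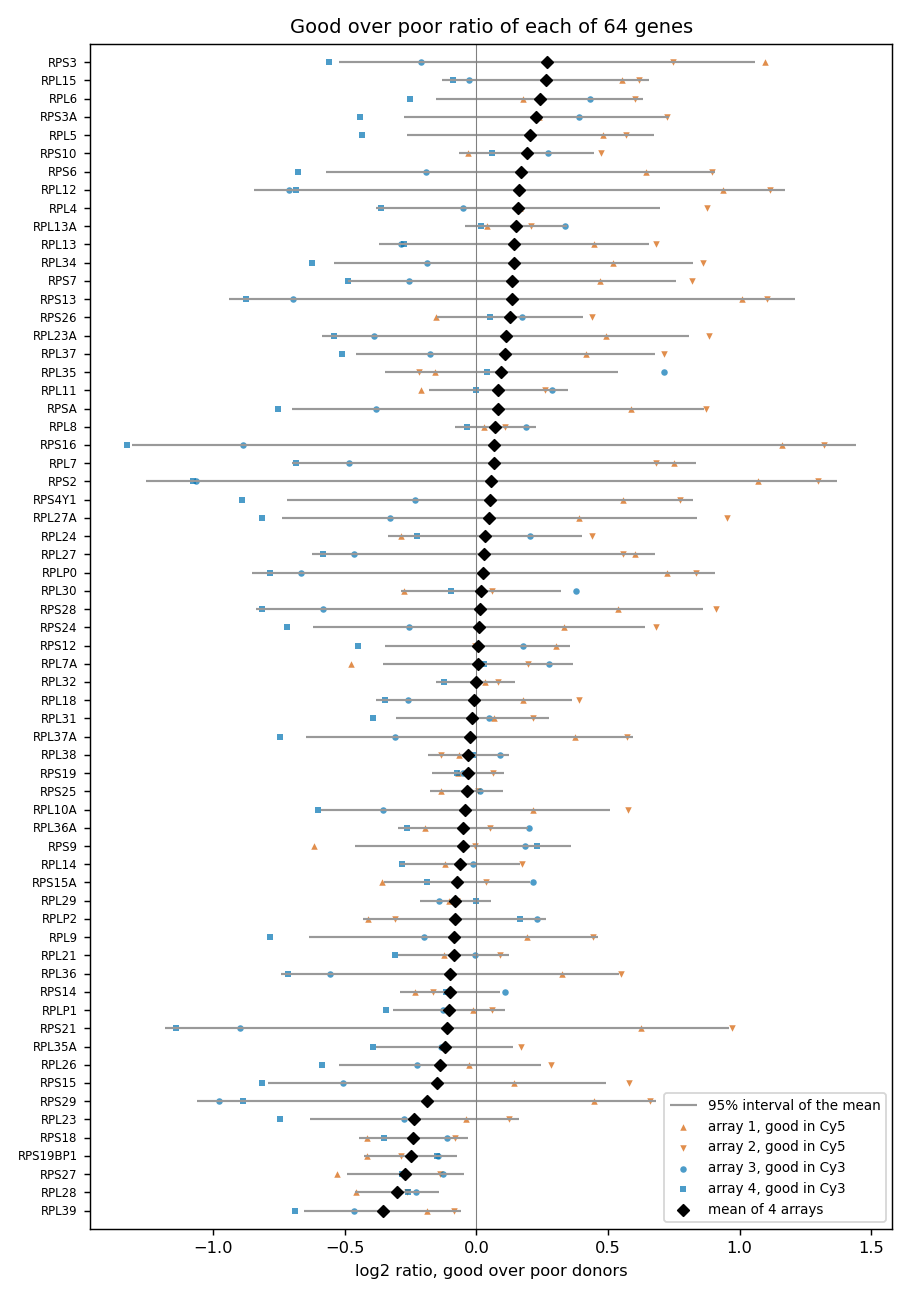
Log2 ratio of good over poor donors (horizontal axis) for each of 64 genes (vertical axis), with the 4 arrays as coloured points, their mean as a black diamond and the 95% interval of the mean from limma as a grey line. Intervals come from the fit without a dye term. They contain 0 for 59 genes, and the 5 that lie below 0 belong to RPL28, RPL39, RPS18, RPS27 and RPS19BP1.

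Among the large subunit genes, RPL28 encodes a protein that bacterial ribosomes lack. Its log2 intensity was 12.96, 13.05, 13.04 and 12.99 in the good-donor pools of arrays 1 to 4 and 13.42, 13.32, 13.26 and 13.25 in the poor-donor pools. The good-donor pools lay close together and all below the poor-donor pools. The ratios were -0.46, -0.26, -0.23 and -0.26, with a mean of -0.30 ± 0.10 (SD, n = 4), which is 1.23-fold lower. The unadjusted p in limma was 0.0047 and the adjusted p was 1.00. Its other 2 probes had means of -0.22 ± 0.11 and -0.26 ± 0.25 (SD, n = 4), and 1 of their 8 ratios was above 0. The ratio of RPL28 stayed between -0.33 and -0.24 under every alternative that was run.

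RPL39 is a small protein that lines the exit tunnel. Its log2 intensity was 9.89, 10.39, 9.98 and 9.71 in good-donor pools and 10.08, 10.48, 10.44 and 10.40 in poor-donor pools. The groups overlapped through the good-donor pool of array 2 and the poor-donor pool of array 1, although each array's ratio was below 0. The ratios were -0.19, -0.09, -0.46 and -0.69, with a mean of -0.36 ± 0.27 (SD, n = 4) and an unadjusted limma p of 0.028. The mean ratio was -0.14 where good donors were in Cy5 and -0.58 where they were in Cy3. The lowest ratio was on array 4, whose poor-donor pool also had the highest leukocyte and epithelium sums. Whether dye orientation or other cells have a part in the ratios of RPL39 was not tested. Without array 4 and without each other array in turn the mean ran from -0.45 to -0.25. Among other measured proteins at the exit tunnel, RPL23A, RPL26, RPL31 and RPL35 had means of 0.11, -0.14, -0.01 and 0.10, and none passed.

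RPS27, a zinc finger protein of the small subunit, had log2 intensities of 11.61, 12.06, 11.97 and 11.73 in good-donor pools and 12.14, 12.20, 12.09 and 12.01 in poor-donor pools. The groups met at their edges, with the good-donor pool of array 2 above the poor-donor pool of array 4. Its mean ratio was -0.27 ± 0.19 (SD, n = 4). Its unadjusted p in limma was 0.026. RPS18, a protein of the subunit head, had 11.32, 11.76, 11.51 and 11.37 in good-donor pools and 11.74, 11.84, 11.62 and 11.72 in poor-donor pools. Here the good-donor pool of array 2 lay above 3 of the 4 poor-donor pools, and the other good-donor pools lay below all of them. The mean was -0.24 ± 0.17 (SD, n = 4). The unadjusted p in limma was 0.031. RPS19BP1 had 9.07, 9.22, 9.37 and 9.45 against 9.48, 9.51, 9.52 and 9.60, with no overlap. Its mean was -0.25 ± 0.13 (SD, n = 4). The unadjusted p in limma was 0.015.

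In the authors' deposited table, turned to good over poor, the 5 genes kept negative means of -0.29 for RPL28, -0.34 for RPL39, -0.24 for RPS18, -0.23 for RPS27 and -0.23 for RPS19BP1. The unadjusted p there was 0.070 for RPS18 and 0.14 for RPS27 in limma, so these no longer came under 0.05, and the other 3 did. The ratio of RPS27 on array 3 was 0.03, above 0. RPL13A, a large subunit protein that also has roles outside the ribosome, had ratios of 0.04, 0.21, 0.34 and 0.02 and a mean of 0.15 ± 0.15 (SD, n = 4). Its unadjusted p in limma was 0.10. In the deposited table its ratios on arrays 1 and 2 were -0.10 and -0.09, so its common sign did not hold there. The other probe of RPL13A had -0.33, 0.05, 0.36 and 0.13 in the main setting, with a mean of 0.05 ± 0.29 (SD, n = 4). The common sign did not hold in that probe either.

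The other genes were described by role. RPL5 and RPL11 bind 5S ribosomal RNA and, when free, the p53 regulator MDM2, as does RPL23. Their mean ratios were 0.20 ± 0.45, 0.08 ± 0.24 and -0.24 ± 0.38 (SD, n = 4), and none passed. RPS19, whose human gene is mutated in Diamond-Blackfan anaemia, had -0.07, 0.06, -0.05 and -0.07 on arrays 1 to 4, the tightest set among the genes named by role. RPS6, the S6 kinase substrate, had 0.64, 0.90, -0.19 and -0.68, with a mean of 0.17 ± 0.73 (SD, n = 4). RPS3, which lies at the messenger RNA entry channel and also acts in DNA repair, had 1.10, 0.75, -0.21 and -0.56, and RPSA, also known as the laminin receptor, had 0.59, 0.87, -0.38 and -0.75. In RPS6, RPS3 and RPSA the sign followed the dye orientation, and the 95% interval of the mean was wide, from -0.70 to 0.87 for RPSA. RPS4Y1 had 0.56, 0.78, -0.23 and -0.89. The donors were heifers and cows, which carry no Y chromosome, so its signal is not that of a Y-linked gene. The near-identical RPS4X shares the older symbol RPS4 with RPS4Y1 in the RefSeq table. Whether the probe reads RPS4X was not tested. Across all 64 genes the half-width of that interval ran from 0.14 to 1.38 on the log2 scale. The interval comes from the fit without a dye term, where a difference between dye orientations counts as spread. Differences smaller than these widths could not be told from 0 in that fit.

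The stalk of the large subunit recruits the elongation factors and is built from RPLP0, RPLP1 and RPLP2, with RPL12 at its base. RPLP0 had ratios of 0.72, 0.83, -0.67 and -0.78, a mean of 0.03 ± 0.87 (SD, n = 4). RPL12 had 0.94, 1.12, -0.71 and -0.69, a mean of 0.16 ± 1.00. In both genes arrays 1 and 2, with good donors in Cy5, were high and arrays 3 and 4 were low. RPLP1 had -0.01, 0.06, -0.13 and -0.34, and RPLP2 had -0.41, -0.31, 0.23 and 0.16. RPLP2 thus ran the opposite way to RPLP0 on every array.

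The second comparison asked how the ratios of these genes differed between the dye orientations. The median ratio of the 64 genes was 0.15, 0.44, -0.14 and -0.39 on arrays 1 to 4, while the median of all tested probes was within 0.01 of 0 on each. On array 2, 52 of 64 genes were above 0, and on array 4 only 7 were. The small subunit genes had array medians of 0.32, 0.67, -0.20 and -0.52, and the large subunit genes had 0.04, 0.28, -0.13 and -0.35. The median log2 intensity was 14.41 for the small subunit genes and 13.72 for the large subunit genes. The difference between the subunits was not tested. Ratios above 0 on arrays 1 and 2 and below 0 on arrays 3 and 4 were seen in 30 members, against a background of 13.2% of tested probes. The reverse was seen in 3, RPL35, RPLP2 and RPS9, against 16.2%. Dye orientation and the particular pools on those arrays cannot be told apart, and how far the pattern reaches depended on the normalization, as given below.

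**Figure D2:**
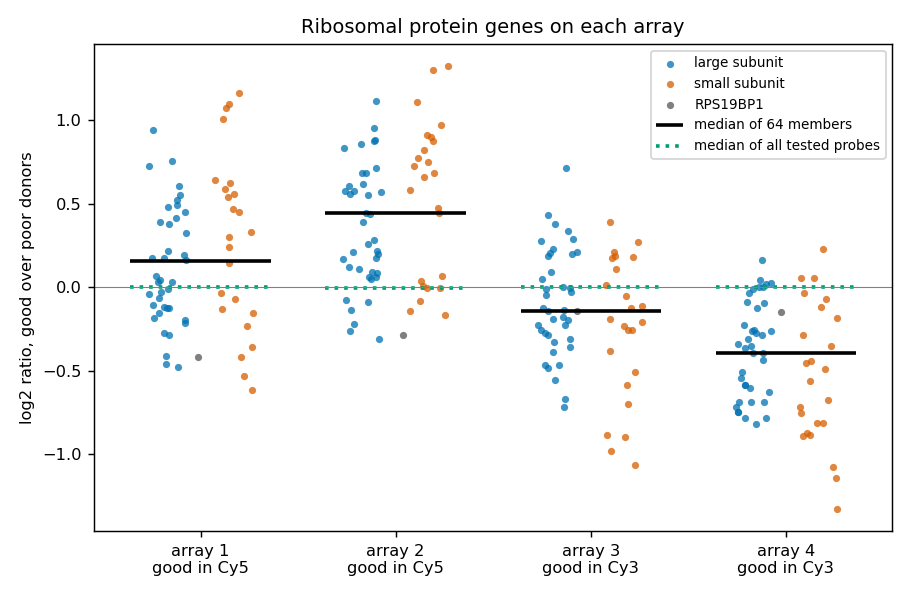
Log2 ratio of good over poor donors (vertical axis) on each array for large subunit genes (blue), small subunit genes (orange) and RPS19BP1 (grey), with the median of the 64 genes as a black bar and the median of all tested probes as a dotted green bar. The black bars lie at 0.15, 0.44, -0.14 and -0.39, and the green bars at about 0.

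A dye coefficient was fitted for every tested probe as the log2 of Cy5 over Cy3 that remained whatever the donor group. Its median was 0.26 over the 64 genes, with a range from -0.28 to 1.17, and 0.0066 over all tested probes. At an adjusted p under 0.05, 0 of 64 members were called, against a background of 0%, and the smallest adjusted p was 0.15 (limma). At an unadjusted p under 0.05, 29 members were higher in Cy5, against a background of 7.41%, and 1 was lower, against 9.2%.

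The highest coefficients belonged to small subunit genes and to RPL12. RPS16, which lies near the decoding site, had ratios of 1.16, 1.32, -0.89 and -1.33 and a dye coefficient of 1.17 ± 0.09 (SE). RPS2, at the messenger RNA entry, had 1.07, 1.30, -1.07 and -1.08 and a coefficient of 1.13 ± 0.06 (SE). RPS13, RPS21 and RPL12 had coefficients of 0.92, 0.91 and 0.86. The 5 genes had log2 intensities that split by dye and not by donors. For RPS16 the channels read 15.47 and 15.67 in Cy5 for good-donor pools and 15.44 and 15.52 in Cy5 for poor-donor pools, against 14.56, 14.19, 14.31 and 14.35 in Cy3. Their mean good over poor ratios lay between -0.11 and 0.16. The lowest coefficients were those of RPL35 at -0.28, RPLP2 at -0.28, RPS9 at -0.26, RPL7A at -0.15 and RPL30 at -0.12, with SEs between 0.04 and 0.14.

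The dye coefficient of a member was higher where its probe was brighter. Brightness here is the signal of a spot and does not compare the abundance of different genes. The 30 members with a mean log2 intensity above 14 had a median coefficient of 0.56, and 107 other probes in that range had 0.53. From 13 to 14, 10 members had 0.15 and 215 other probes 0.14. At 13 or below, 24 members had -0.023 and 31484 other probes 0.0055. The members followed the other probes of their brightness closely in all 3 ranges. Of the 30 brightest members, 28 followed the dye orientation on all 4 arrays, the exceptions being RPL35A and RPL5. An unadjusted p under 0.05 in limma was seen in 27 of the 30. Of the 107 other probes above 14, 91 followed the dye orientation and 89 had an unadjusted p under 0.05, so most other probes of this brightness did the same. Across the 64 genes, which share arrays, pools and the fitted normalization curve, Pearson's r between coefficient and brightness was 0.77 and Spearman's rho 0.90.

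**Figure D3:**
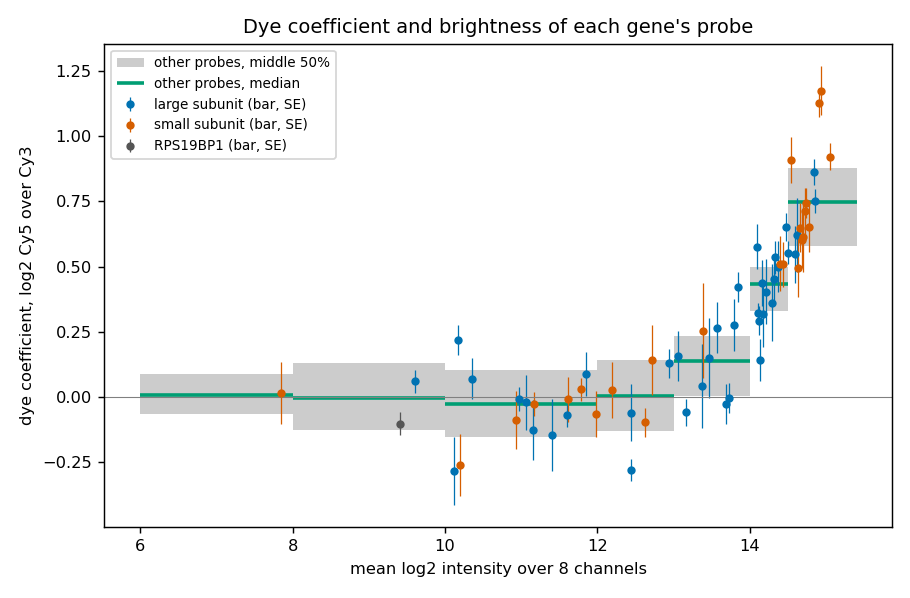
Dye coefficient as log2 Cy5 over Cy3 (vertical axis) against mean log2 intensity over 8 channels (horizontal axis) for the large subunit genes (blue), small subunit genes (orange) and RPS19BP1 (grey), with SE bars; green lines and grey bands give the median and middle 50% of the other tested probes in each brightness range. Members and other probes lie near 0 up to 13 and climb above 14, where the medians are 0.56 and 0.53.

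Members reached the top of the measured range. In 30 of 64 genes the raw foreground came to at least 50% of the brightest spot of a channel. Before any normalization, the median log2 of Cy5 over Cy3 over the members was -0.46, -0.28, -0.42 and -0.33 on arrays 1 to 4, while over all tested probes it was -1.44, -1.59, -1.11 and -1.29. The raw values of the members were thus alike on all arrays, whichever donors were in Cy5, and above those of all tested probes on each.

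Different probes of the same gene were compared, since they read the same gene in the same pools. Of 26 genes with several probes, 14 had probes at least 1 log2 unit apart in brightness, and in 13 of these the brightest probe had a higher coefficient than the dimmest, RPL21 being the exception. The 12 RPLP0 probes ran from 1.01 to -0.19. The 3 brightest of them had 0.75, 1.01 and 0.60 and the dimmest, at a log2 intensity of 13.02, had -0.19. RPL7 had 0.65 with its bright probe and -0.15 with its dim one, RPS7 had 0.51 and -0.04, and the 3 probes of RPSA had 0.65, 0.22 and -0.10. RPS2 had 1.13, 0.44 and 0.11 in order of falling brightness. The mean good over poor ratio, in contrast, differed by at most 0.26 between the probes of any gene. Whether each probe binds only the gene it is named for was not tested.

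**Figure D4:**
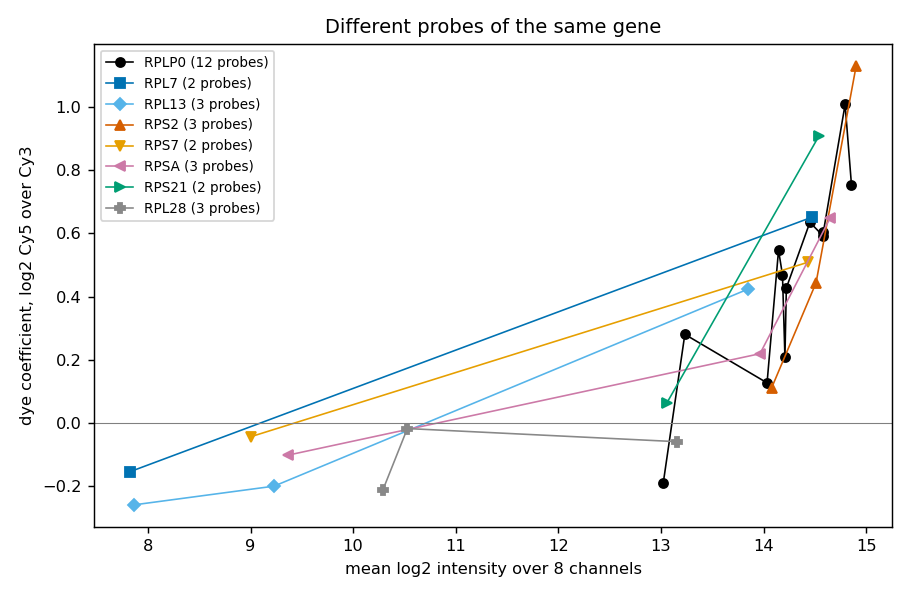
Dye coefficient as log2 Cy5 over Cy3 (vertical axis) against mean log2 intensity over 8 channels (horizontal axis), with 1 point per probe and a line joining the probes of each of 8 genes. The RPLP0 probes span 1.01 to -0.19, and RPL7, RPS7, RPSA and RPS2 each have their highest coefficient at their brightest probe.

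The size of this pattern changed with the normalization. With a narrower loess span of 0.1, chosen after seeing the data, the median coefficient of the 30 brightest members was 0.27 in place of 0.56. In the authors' deposited table it was 0.018, their array medians were 0.04, 0.20, 0.17 and -0.11, and only 4 of the 30 followed the dye orientation in the positive direction. RPS16 and RPS2 kept coefficients of 0.52 and 0.44 there. With median centring and no loess the 30 had a median of 0.43 and the 24 members at 13 or below had -0.27. Under that setting alone, members passed the adjusted test of the dye coefficient: 9 with Cy5 above, against a background of 0.222%, and 1, RPLP2, with Cy5 below, against 2.88%. All 9 were among the 30 members above 14, and 32 of the 107 other probes above 14 also passed with Cy5 above. The median good over poor ratio of the 64 genes stayed between -0.12 and 0.13 under every alternative.

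**Figure D5:**
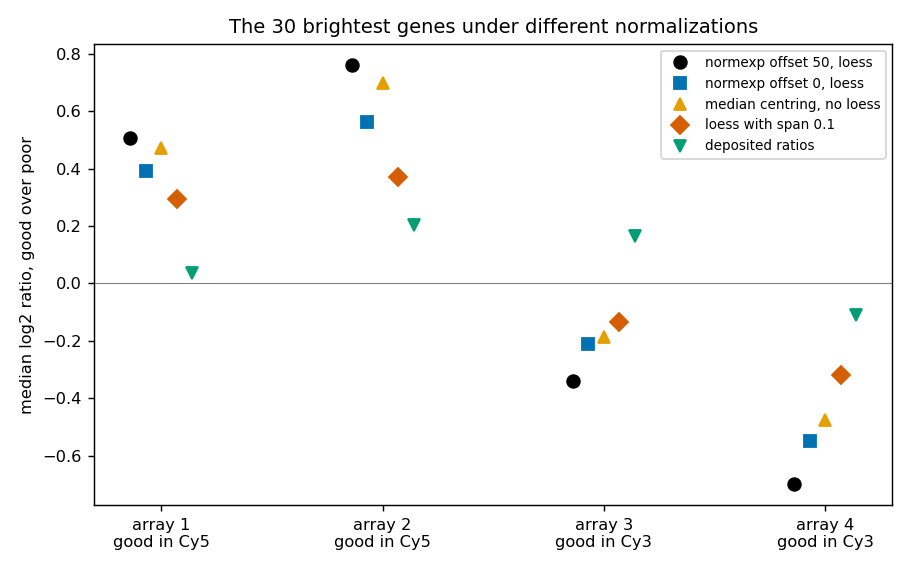
Median log2 ratio of good over poor donors (vertical axis) of the 30 members above a mean log2 intensity of 14 on each array (horizontal axis) under 5 normalizations, 1 symbol each. The main setting gives 0.51, 0.76, -0.34 and -0.70, and the deposited ratios give 0.04, 0.20, 0.17 and -0.11.

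Ratios of the members were alike between arrays of the same orientation. Across the 64 genes Pearson's r was 0.88 between arrays 1 and 2 and 0.83 between arrays 3 and 4. Between arrays of opposite orientation it ran from -0.74 to -0.61, and over all tested probes the 6 pairs of arrays gave -0.34 to 0.29. In the deposited ratios the members gave 0.60 and 0.55 within an orientation and -0.28 to 0.03 between them. These values are descriptions across genes that share arrays, and genes are not replicates.

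The wider translation machinery was set beside the members. The 77 mitochondrial ribosomal protein genes, whose products make up the separate ribosome of the mitochondrion, had a median good over poor ratio of 0.03. In limma 0 of them were called. At an unadjusted p under 0.05, 1 was higher, against a background of 2.18%, and 1 was lower, against 1.37%. Their array medians were -0.03, -0.12, 0.11 and 0.13 and their median dye coefficient was -0.13, opposite in sign to that of the cytosolic genes. Their median log2 intensity was 9.08 against 13.76 for the cytosolic genes. Probes outside the members with a log2 intensity from 8 to 10 had a median dye coefficient of -0.0034. At an unadjusted p under 0.05 in limma, 17 of the 77 had Cy5 below Cy3, against a background of 9.2%. With Cy5 above there were 2, against 7.41%. Of 15 elongation factors and 33 measured initiation factors, 0 were called, with medians of 0.03 and 0.0043. EEF1A1, which brings transfer RNA to the ribosome, had 0.46, 0.53, -0.21 and -0.20. EEF2, which moves the ribosome along the messenger RNA, had 0.29, 0.58, 0.30 and -0.15.

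Other genes with TOP messenger RNAs or with products on the ribosome were set beside them. Of 16 measured, 0 were called in limma, and the median ratio was 0.03. At an unadjusted p under 0.05, 1 was higher, against a background of 2.18%, and 1 was lower, against 1.37%. TPT1, which encodes the translationally controlled tumour protein, had 0.88, 0.90, -0.72 and -1.25 and a dye coefficient of 0.94 at a log2 intensity of 14.79. PABPC1, the poly(A) binding protein, had 0.45, 0.79, -0.55 and -0.52 and a coefficient of 0.58. RACK1, a scaffold on the small subunit, had -0.05, 0.68, 0.18 and -0.24. FAU, whose product is cut to give RPS30, had a mean of 0.10 ± 0.32 (SD, n = 4).

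Of 65 measured ribosome biogenesis genes, 22 had a mean above 0 and 43 below, with a median of -0.04. Of all 31917 tested probes, 15700 had a mean above 0 and 16217 below. The difference in these shares was not tested. None of the biogenesis genes was called in limma. At an unadjusted p under 0.05, 3 were lower, against a background of 1.37%, and 1 was higher, against 2.18%. NPM1, NCL and FBL, which work in the nucleolus, had means of -0.12 ± 0.18, 0.01 ± 0.06 and -0.09 ± 0.10 (SD, n = 4). Of 26 measured genes of the mTOR and S6 kinase pathway 0 were called, with a median of -0.0023. At an unadjusted p under 0.05 in limma 2 were lower, against a background of 1.37%. MTOR, RPS6KB1, EIF4EBP1 and LARP1 had means of -0.04 ± 0.30, 0.01 ± 0.14, 0.11 ± 0.52 and -0.01 ± 0.37 (SD, n = 4). Of the paralogues that the naming rule left out, 4 were measured and 0 were called. RPL22L1 had 0.30, 0.67, 0.31 and -0.06, RPS27L had -0.25, -0.43, 0.46 and 0.29, and RPL7L1 had 0.07, -0.09, -0.28 and -0.11.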

How the data were processed

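The members and gene lists were chosen with earlier results of these data known. Each deposited scanner file lists, per the file headers, foreground and background intensity of every spot as mean and median in both channels, without flags. The authors also deposited a table of log2 ratios, whose normalization is not given in the sources used here. Set against the scanner ratios, its direction is poor over good on all 4 arrays, and the column medians are 0.023, 0.0039, -0.015 and -0.029.

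Mean foreground was corrected with median background by normexp (offset 50), then normalized by loess within arrays, with control spots at weight 0, and by Aquantile between arrays (limma 3.58.1, R 4.3.3). A probe entered the tests when its foreground exceeded the 95th percentile of 757 dark and negative control spots of its channel in at least 4 of 8 channels. Median foreground of a channel ran from 49.9 to 131.6. The dye labels gave each ratio its direction, good over poor. The mean of the 4 ratios was tested two-sided with lmFit and eBayes and Benjamini-Hochberg adjustment at 0.05, with 3 residual and 1.97 prior degrees of freedom. The dye coefficient is the log2 of Cy5 over Cy3 from a fit with a dye term. The fits were tested on simulated data. The 4 arrays limit the precision.

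Genes were named by the platform annotation of the array, which gave 1 symbol to 21790 probes and none to 22004. All 64 member symbols were in RefSeq (ARS-UCD2.0). No sequence is shown. Named were up to 5 members in each direction with the smallest p among those of 1 sign on all arrays, up to 5 in each direction by dye coefficient, genes fixed by role, and any gene whose probes differ by 1 or more in mean log2 ratio, of which there were 0. Members singled out beside these were chosen after their values were seen. Alternatives changed the background correction, normalization, filter, probe choice, model, weights, source of values and arrays included.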

Additional observations from a re-analysis of the deposited data

Results flagged for a closer look

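RPL28 had a ratio of -0.46 on array 1, apart from the other arrays, which lay between -0.26 and -0.23. RPS19 had a ratio of 0.065 on array 2, apart from the others at -0.07 to -0.05. In both genes 1 array stood far from the rest for the spread of the 4. Such a gap was found in 2 of 66 sets of 4 values examined, where chance alone gives 3.3. The median ratio of the 64 genes was 0.25 where good donors were in Cy5 and -0.24 where they were in Cy3. For the large subunit these medians were 0.13 and -0.23, and for the small subunit 0.49 and -0.38. The small subunit genes also had the higher median log2 intensity, as given above. In each case both arrays of an orientation lay on 1 side of 0 and both others on the opposite side. The difference between the orientations was not tested for the lists.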

How the results depend on the processing

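No member was called for good over poor under any of the alternatives run. The number of members at an unadjusted p under 0.05, 5 in the main setting, was 0 with normexp at offset 0, 3 with median foreground, 2 with median centring and 2 with an intensity trend in the prior variance, and it ran from 2 to 5 when each array was left out in turn; the 2 came without array 1. The members called for the dye coefficient were 10 with median centring and 0 under every other setting. The median dye coefficient of the members, 0.26 in the main setting, was 0.096 with median centring, 0.087 with each gene's dimmest probe, -0.0061 without the members at 50% or more of the brightest spot, -0.014 in the deposited ratios and 0.070 with a loess span of 0.1. Leaving out each array gave 0.16 to 0.33. Causes of these shifts were not tested. The dye coefficient of RPS9 reversed to 0.024 with its dimmest probe, and that of RPL7A to 0.023 without array 1, with a range of -0.31 to 0.023 over the arrays left out. Among 611 single-gene values, 34 changed the sign of a mean that lay within its own error, and counts of means above and below 0 include such means and give no direction for them. The median ratio ran from -0.12 without array 2 to 0.13 without array 4. The members without RPS19BP1 gave 4 genes at an unadjusted p under 0.05. No further paired analysis was run, because each tested ratio already pairs the 2 pools of an array and the labels form 1 group of ratios. Signal over background did not limit the members, all of which exceeded the control level in all channels.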

Other observations

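The genes mutated in human Diamond-Blackfan anaemia, a disorder of red cell formation, gave a mixed picture in these pools. Of 14 measured, 9 had a mean good over poor ratio above 0 and 5 below, with a median of 0.02 and a range from -0.19 to 0.26, and 0 were called in limma. The highest was RPL15 at 0.26 ± 0.37 and the lowest RPS29 at -0.19 ± 0.86 (SD, n = 4). With a dye term in the fit, RPL15 had an unadjusted p of 0.0040 and an adjusted p of 0.84 in limma, and RPS29 had 0.034 and 0.85. RPL15 and RPS29 are named here after their values were seen.

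Of the ribosomal protein genes that are X-linked in mammals, 2 were measured under their own symbols. RPL36A had a mean ratio of -0.05 ± 0.22 and RPL39 had -0.36 ± 0.27 (SD, n = 4). Of the 24 members with a mean log2 intensity at 13 or below, 17 had a mean below 0 and 7 above, with a median of -0.05. Of the 30 members above 14, 21 were above 0 and 9 below, with a median of 0.05. The 107 other probes above 14 had a median of 0.06, and the 31484 other probes at 13 or below had -0.0015. Most of these means lie within their SD over arrays, so the counts give no direction for a gene. They are descriptions, and the difference between the ranges was not tested.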
